A study of Mus musculus with 15 samples.

Results

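The genes described here are 41 listed mouse genes that interferons induce or that serve the presentation of peptides on MHC class I molecules. The list holds 6 transcription factors, 6 RNA sensors and ubiquitin-like modifiers, 20 antiviral effectors and 9 antigen presentation genes. Members were found by symbol, with newer and older synonyms, among the array probesets that the annotation assigns to exactly 1 gene, and 37 of the 16185 genes with a value were members. Sp100, Isg15, Usp18 and Xaf1 gave no such probeset and were not analysed here. RNA from a pair of mouse cell lines, 3134 and AtT-20, was hybridised to 15 Affymetrix exon arrays of 1 colour after 0, 2, 4 or 8 h of 100 nM dexamethasone, a synthetic agonist of the glucocorticoid receptor, to compare expression before and after the hormone. The 3134 line was derived by transformation of a line isolated from a mammary tumour of an RIII mouse, while AtT-20 cells are pituitary corticotrophs from the LAF1 strain, so line, tissue and strain cannot be told apart. There were 2 arrays for each line and time, apart from AtT-20 at 8 h with 1 array. All cells had been kept in charcoal-stripped serum before the hormone, and the labels call the 0 h cells both untreated and vehicle treated. No untreated arrays at 2, 4 or 8 h were used here, so an effect of the hormone cannot be told apart from one of time in culture. The labels do not say whether the arrays of a group came from separate cultures, so the spread behind the p-values may be a technical one.

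Interferons are cytokines that signal through JAK kinases to transcription factors. The factor ISGF3, which contains STAT2 and IRF9, binds the interferon-stimulated response element (ISRE), and interferon gamma acts through gamma-activated sites (GAS). The induced genes encode sensors of viral RNA, proteins that block viral entry or replication, and the machinery that cuts proteins into peptides and loads them on MHC class I. Many are also transcribed at a basal level without added interferon. Glucocorticoids are known to dampen part of this programme in immune cells. No interferon was added in this study, so the arrays show basal levels and their course under dexamethasone.

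Levels are log2 RMA signals, quantile normalized over the 15 arrays, with the median over the probesets of a gene as its value. A level on this scale does not compare 1 gene with another. A gene was tested if it had at least 3 probesets and the mean of at least 1 of the 8 groups reached log2 6.59, the 40th percentile of all values. In AtT-20 at 0 h, 8 of 9 corticotroph markers reached that level, and in 3134 none of the 9 did; the hormone precursor gene Pomc stood at 13.23 and 5.20. In 3134 at 0 h, 6 of 7 mesenchymal and 2 of 8 mammary epithelial markers reached it, with Epcam at 4.32 and Cdh1 at 5.73. In AtT-20, 2 of 7 mesenchymal (Col1a1 and Cdh2) and 2 of 8 epithelial markers did. Of 3 epithelial markers tested, Krt8 (6.77 in 3134, 11.68 in AtT-20) and Krt18 (4.95 and 9.97) were lower in 3134. Krt14 (7.03 and 6.07) was higher. Of 7 immune markers only Cd68 reached it, in 3134 (7.69, against 6.06 in AtT-20), and the leukocyte gene Ptprc was at 3.71 and 3.89. Cdh5 (7.28) was the 1 of 5 endothelial markers to reach it in 3134, and AtT-20 had none. As a check of the treatment, the glucocorticoid target Fkbp5 rose at 2, 4 and 8 h in 3134 by 2.66, 3.05 and 2.81 (log2, highest adjusted p 5.81e-06). In AtT-20 the Fkbp5 differences were 0.70 (adjusted p 0.323), 1.11 (0.015) and 1.04 (0.0929). The glucocorticoid receptor gene Nr3c1 was 1.50 ± 0.17 (SE) higher in 3134 than in AtT-20 at 0 h (adjusted p 9.2e-06).

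Of the 37 members with a value, 27 were tested. Ifit1 and Ifit3 had 2 probesets and 1 probeset. The other 8 (Ifih1, Dhx58, Oasl2, Mx1, Mx2, Rsad2, Ifi44 and Gbp3) stayed under log2 6.59 in the mean of all 8 groups. Among the 27, 19 reached that level at 0 h in both lines. Ddx58, Ifit2, Ifitm3, Gbp2 and Parp14 reached it only in 3134 and Irf7, Cmpk2 and Psmb8 only in AtT-20. The size of a difference for these 8 genes depends on the array's background in the dimmer line. They passed the filter only through the line where they are high, so the counts between the lines include genes admitted in that way.

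**Figure D1:**
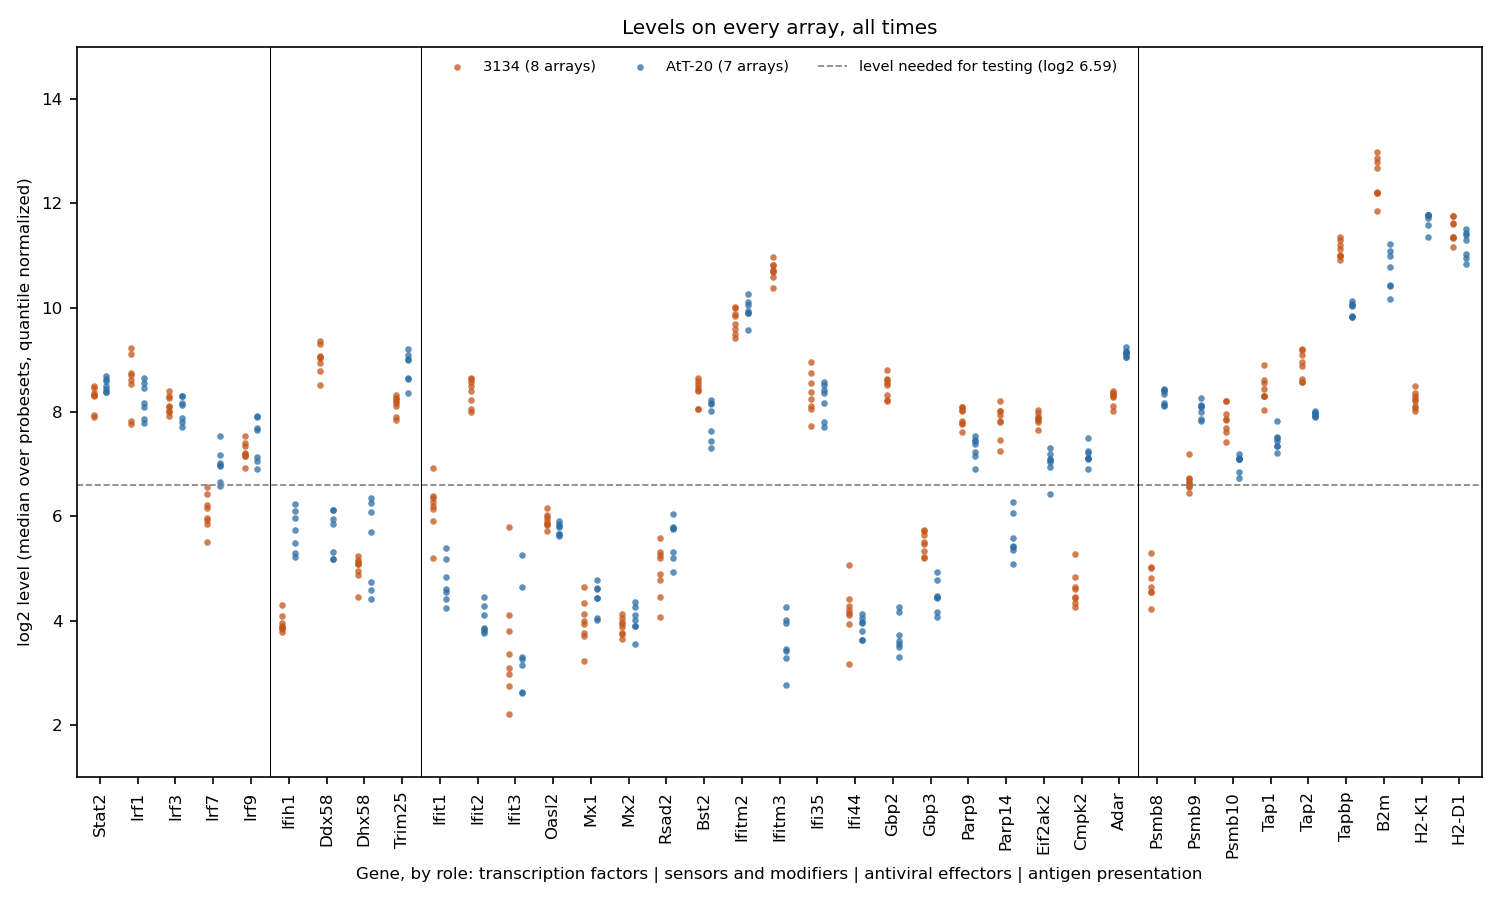
Levels of the 37 members with a value on each of the 15 arrays. The vertical axis is the log2 level (median over probesets, quantile normalized), points are arrays (8 of 3134, 7 of AtT-20, all times together), the dashed line is the level needed for testing (6.59), and genes stand in 4 role groups separated by vertical lines. For 19 of the 27 tested members the points of the lines do not overlap.

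Promoter windows of 34 members, 250 bases before to 50 bases after a RefSeq transcription start in GRCm38.p6, were searched on both strands for a core of the ISRE (GAAA, any 2 bases, GAAA), a core of the GAS (TTC, any 3 bases, GAA) and a full glucocorticoid response element (AGAACA, any 3 bases, TGTTCT). The ISRE core stood in 14 of the 42 member windows (33.3%) and in 1131 of 32851 windows of all genes (3.44%). Members were listed as interferon-induced genes, so these shares describe the list. The GAS core stood in 8 of 42 (19.0%) and in 8.3% of all windows. The full glucocorticoid element stood in none of the member windows and in 3 of all windows. A match is a description of letters, not of binding. The windows shown belong to members on whose levels the results turn, and capitals mark the ISRE and GAS cores. That of Gbp2 (chr3:142620413-142620712, plus strand) has an ISRE core that begins at offset -59 from the start. That of Ifitm3 (chr7:141010695-141010994, minus strand) has ISRE cores from offsets 2 and 19 and a GAS core from offset 13 that overlaps the later of them. Irf1 (chr11:53769764-53770063, plus strand) has a GAS core from offset -90, and Psmb8 (chr17:34197945-34198244, plus strand) has one from offset -97. Another Irf1 window (chr11:53770223-53770522, plus strand) holds none of the searched motifs and is not shown.
Gbp2: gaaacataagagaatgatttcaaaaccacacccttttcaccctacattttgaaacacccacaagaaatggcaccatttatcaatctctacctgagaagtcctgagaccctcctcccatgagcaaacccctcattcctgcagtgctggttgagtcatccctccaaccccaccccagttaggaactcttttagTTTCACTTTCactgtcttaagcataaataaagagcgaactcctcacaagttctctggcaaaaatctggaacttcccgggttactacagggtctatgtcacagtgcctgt
Ifitm3: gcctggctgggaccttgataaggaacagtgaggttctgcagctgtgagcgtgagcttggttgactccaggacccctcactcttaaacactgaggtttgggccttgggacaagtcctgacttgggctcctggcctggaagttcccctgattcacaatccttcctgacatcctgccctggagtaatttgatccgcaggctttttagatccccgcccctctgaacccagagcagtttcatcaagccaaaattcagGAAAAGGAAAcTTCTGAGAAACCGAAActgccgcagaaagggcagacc
Irf1: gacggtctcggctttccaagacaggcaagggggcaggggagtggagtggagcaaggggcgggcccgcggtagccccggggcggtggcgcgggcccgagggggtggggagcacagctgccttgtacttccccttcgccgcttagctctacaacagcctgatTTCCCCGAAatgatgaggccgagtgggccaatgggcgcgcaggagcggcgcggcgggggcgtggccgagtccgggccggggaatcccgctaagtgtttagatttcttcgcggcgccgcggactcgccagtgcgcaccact
Psmb8: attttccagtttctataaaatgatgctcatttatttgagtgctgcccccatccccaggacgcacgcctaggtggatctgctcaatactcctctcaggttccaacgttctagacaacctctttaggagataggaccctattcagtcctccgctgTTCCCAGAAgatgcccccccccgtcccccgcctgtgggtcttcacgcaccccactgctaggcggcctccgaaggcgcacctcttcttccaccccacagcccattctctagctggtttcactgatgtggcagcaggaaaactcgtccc

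Tap1 (chr17:34187306-34187605, plus strand) and Psmb9 (minus strand) are transcribed away from each other, and their windows share 275 of 300 bases. The Tap1 window is shown because this shared stretch serves a gene that was higher in 3134 and one that was lower, and it holds none of the searched motifs.
Tap1: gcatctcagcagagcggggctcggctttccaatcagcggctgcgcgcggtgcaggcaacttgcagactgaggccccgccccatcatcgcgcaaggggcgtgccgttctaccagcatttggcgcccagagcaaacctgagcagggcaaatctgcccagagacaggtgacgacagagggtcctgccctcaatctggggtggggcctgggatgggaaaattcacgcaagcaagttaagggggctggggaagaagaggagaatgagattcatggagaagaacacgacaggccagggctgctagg

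At 0 h, 13 of the 27 tested members were higher in 3134 than in AtT-20, 7 were lower and 7 did not pass the test (limma, adjusted p below 0.05). Over all genes tested, 54.5% passed, 24.3% higher and 30.3% lower. The median difference of the members was 0.73 (log2, 3134 minus AtT-20), and that of all 9919 genes was -0.10. Differences ran from -3.44 for the immunoproteasome subunit Psmb8 to 6.60 for the membrane protein Ifitm3, and 21 of the 27 were larger than 0.5 in either direction. With the 2 runs of arrays as a block, Bst2 and Trim25 passed as well, beside 66.8% of all genes. On the deposited scale, without quantile normalization, 9 passed, 6 higher and 3 lower, beside 19.7% of all genes. Stat2, Irf1, Irf7, Parp9, Eif2ak2, Adar, Psmb9, Psmb10, Tap1, Tap2 and Tapbp lost their calls there. With the block on that scale only Stat2 and Adar did. Over all times, the range of the 8 arrays of 3134 did not overlap that of the 7 arrays of AtT-20 for 19 of the 27 members, with 12 above and 7 below, while 52.6% of all genes did not overlap (22.9% with 3134 higher and 29.7% lower).

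**Figure D2:**
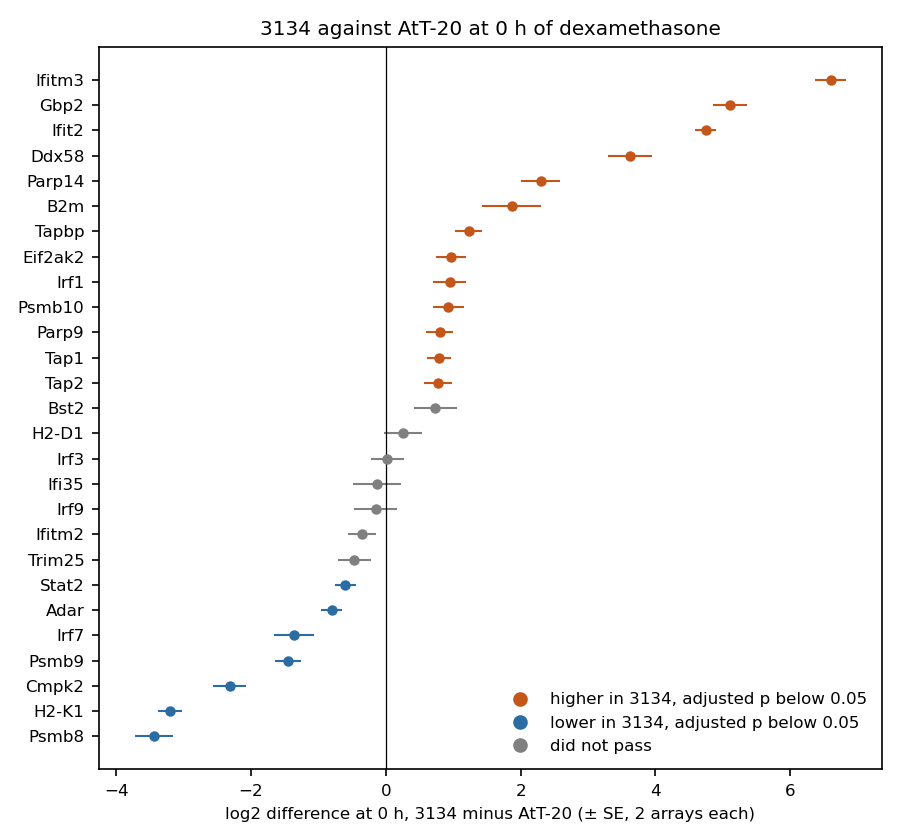
Difference between the lines at 0 h for the 27 tested members. The horizontal axis is the log2 difference, 3134 minus AtT-20, and bars are ± SE from limma with 2 arrays in each line. Colours show the 13 higher, 7 lower and 7 that did not pass. Over all genes tested, 24.3% were higher and 30.3% lower.

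Among the 5 transcription factors tested, Irf1 was higher in 3134 at 0 h, Stat2 and Irf7 were lower, and Irf3 and Irf9 did not pass. Irf7, the factor that amplifies interferon production, lay at 5.86 and 5.93 in 3134 at 0 h and at 7.55 and 6.97 in AtT-20. All arrays of AtT-20 (lowest 6.58, median 6.97, highest 7.55) stood above all arrays of 3134 (5.50, 6.06 and 6.56), though the nearest arrays almost met. The 0 h difference was -1.36 ± 0.29 (SE, adjusted p 0.00187), a 2.57-fold lower signal. Stat2, the transactivating subunit of ISGF3, lay at 7.94 and 7.90 in 3134 and at 8.45 and 8.59 in AtT-20, so the 0 h arrays of the lines did not overlap. Its difference of -0.60 ± 0.16 had an adjusted p of 0.00665, while the median of its 27 probeset differences was -0.30. With the mean over probesets Stat2 differed by -0.20 (adjusted p 0.229) and on the deposited scale by -0.27 (adjusted p 0.905), and neither passed. Irf9, the DNA-binding subunit of ISGF3, was at 7.54 and 7.20 in 3134 and at 7.91 and 7.13 in AtT-20, and the AtT-20 pair spanned both 3134 arrays (difference -0.15 ± 0.32, adjusted p 0.725). Irf3, which viral sensors activate, differed by 0.02 ± 0.24 (adjusted p 0.949). The sign for Irf9 turns on the deposited scale, where it was 0.09.

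Irf1, a factor that both types of interferon induce and that drives class I genes, lay at 9.11 and 9.23 in 3134 at 0 h and at 8.66 and 7.79 in AtT-20. The 3134 arrays were higher, and the AtT-20 pair was far apart. The difference was 0.95 ± 0.24 (adjusted p 0.00512), with 12 of 13 probesets higher in 3134. Without replicate 2 of AtT-20 at 0 h it was 0.51 and did not pass (adjusted p 0.0537).

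Of the RNA sensors and modifiers, Ddx58 and Trim25 were tested. Ddx58 encodes RIG-I, the sensor of uncapped viral RNA, and lay at 9.31 and 9.36 in 3134 at 0 h against 6.12 and 5.31 in AtT-20. All 8 arrays of 3134 (lowest 8.51, median 9.05, highest 9.36) were above all 7 of AtT-20 (5.17, 5.84 and 6.12). The difference of 3.62 ± 0.33 (adjusted p 1.39e-06) held in sign for 20 of 20 probesets. Trim25, the ubiquitin ligase that activates RIG-I, was at 8.18 and 8.26 in 3134 and at 9.00 and 8.37 in AtT-20 (difference -0.47 ± 0.24, adjusted p 0.127). With the runs as a block Trim25 passed as lower (adjusted p 0.00463). Ifih1, which encodes the long-RNA sensor MDA5, and Dhx58, which encodes the regulator LGP2, stayed under the level for testing. Ifih1 ranged from 3.78 to 4.29 in 3134 and from 5.22 to 6.23 in AtT-20, without overlap, and Dhx58 ranged from 4.45 to 5.24 and from 4.41 to 6.34.

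The widest differences of tested members were those of the antiviral effectors Ifitm3, Gbp2 and Ifit2, which passed the filter only through 3134, as did Parp14. Of 11 tested, Ifitm3, Gbp2, Ifit2, Parp14, Eif2ak2 and Parp9 were higher in 3134, Cmpk2 and Adar were lower, and Bst2, Ifitm2 and Ifi35 did not pass. Ifitm3, which blocks the fusion of enveloped viruses with endosomes, lay at 10.73 and 10.69 in 3134 at 0 h and at 3.96 and 4.26 in AtT-20. Its lowest level in 3134 was 10.38 and its highest in AtT-20 was 4.26, so the lines stood far apart at every time. The difference was 6.60 ± 0.23 (adjusted p 5.66e-10), and each of the 5 probesets was higher in 3134, by 3.77 to 8.58. Ifitm2, a related restriction factor on the same chromosome, did not pass. The Ifitm2 levels at 0 h were 9.50 and 9.43 in 3134 and 10.05 and 9.56 in AtT-20 (difference -0.35 ± 0.21, adjusted p 0.181), and 4 of 4 probesets were lower in 3134. On the deposited scale the Ifitm2 difference was 0.02, of the opposite sign. Ifitm genes resemble each other in sequence, and cross-hybridisation of their probesets was not tested.

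Gbp2, a guanylate-binding GTPase that acts on pathogen vacuoles, lay at 8.80 and 8.64 in 3134 at 0 h and at 3.72 and 3.50 in AtT-20. Its arrays ran from 8.21 to 8.80 (median 8.54) in 3134 and from 3.30 to 4.26 (median 3.60) in AtT-20 over all times. Gbp2 differed by 5.11 ± 0.25 (adjusted p 6.78e-09), with 12 of 12 probesets higher in 3134. Its relative Gbp3 stayed under the level for testing, from 5.21 to 5.74 in 3134 and from 4.06 to 4.93 in AtT-20. Ifit2, which encodes an RNA-binding repressor of viral translation, was at 8.49 and 8.65 in 3134 at 0 h and at 3.84 and 3.80 in AtT-20. That difference of 4.75 ± 0.16 (adjusted p 3.21e-10) was of the same sign in 6 of 6 probesets. Its neighbour Ifit1, a sensor of viral cap structures, had 2 probesets, and its arrays overlapped slightly (5.19 to 6.93 in 3134, 4.24 to 5.39 in AtT-20). Ifit3, from 1 probeset, ranged from 2.22 to 5.80 and from 2.62 to 5.26.

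Parp14, a mono-ADP-ribosyltransferase, lay at 8.02 and 8.20 in 3134 at 0 h and at 6.28 and 5.35 in AtT-20. No array of AtT-20 (lowest 5.09, median 5.43, highest 6.28) reached those of 3134 (7.26, 7.88 and 8.20), and the 0 h difference was 2.30 ± 0.29 (adjusted p 2.96e-05). Parp9, its partner macrodomain protein, and Eif2ak2, which encodes the translation-blocking kinase PKR, were 0.80 ± 0.20 and 0.96 ± 0.22 higher in 3134 (adjusted p 0.00515 and 0.00296). Bst2, which tethers budding virions, differed by 0.73 ± 0.32 (adjusted p 0.0735; 0.00117 with the runs as a block).

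Cmpk2, a mitochondrial nucleotide kinase, went the other way. It lay at 4.46 and 5.28 in 3134 at 0 h and at 7.11 and 7.25 in AtT-20, and every array of AtT-20 (lowest 6.91) was above every array of 3134 (highest 5.28). The difference was -2.31 ± 0.25 (adjusted p 6.04e-06). Rsad2, which encodes viperin and stands beside Cmpk2 in the mouse genome, stayed under the level for testing, at 4.07 to 5.58 in 3134 and 4.92 to 6.03 in AtT-20. Adar, which edits double-stranded RNA, was 0.80 ± 0.16 lower in 3134 (adjusted p 0.000977). Ifi35 differed by -0.13 ± 0.36 (adjusted p 0.784; 0.19 on the deposited scale). The dynamin-like GTPases Mx1 and Mx2, the oligoadenylate synthetase relative Oasl2 and Ifi44 lay between 3.17 and 6.16 on all arrays, and their ranges in the lines overlapped.

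The 9 antigen presentation genes were all tested, with 5 higher in 3134, 3 lower and 1 that did not pass. On the deposited scale only Psmb8, B2m and H2-K1 passed, and with the block on that scale the calls of the 9 genes were unchanged. Both transporter subunits and tapasin were higher in 3134. Tap1, a subunit of the peptide transporter of the endoplasmic reticulum, lay at 8.04 and 8.31 in 3134 at 0 h and at 7.43 and 7.34 in AtT-20, with no overlap at any time (lowest 8.04 in 3134, highest 7.82 in AtT-20). The difference was 0.79 ± 0.18 (adjusted p 0.00273), and 15 of 15 probesets were higher in 3134. Tap2, the partner subunit, differed by 0.78 ± 0.21 (adjusted p 0.00714), which did not pass without replicate 2 of 3134 at 0 h (0.62, adjusted p 0.0722). Tapbp, which encodes tapasin, the bridge from the transporter to class I, differed by 1.23 ± 0.20 (adjusted p 0.000228), a 2.35-fold higher signal.

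B2m, the invariant light chain of class I, lay at 12.79 and 12.20 in 3134 at 0 h and at 11.08 and 10.18 in AtT-20. All arrays of 3134 (lowest 11.86, median 12.44, highest 12.98) were above those of AtT-20 (10.18, 10.78 and 11.23), though arrays of 1 group lay up to 1.01 apart. The difference was 1.87 ± 0.43 (adjusted p 0.00304), with 5 of 5 probesets higher.

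The 3 immunoproteasome subunits, which replace catalytic subunits of the constitutive proteasome and change which peptides are cut, split between the lines. Psmb8 lay at 4.64 and 5.03 in 3134 at 0 h and at 8.45 and 8.11 in AtT-20. Over all times it ran from 4.22 to 5.30 (median 4.72) in 3134 and from 8.11 to 8.45 (median 8.34) in AtT-20, without overlap. The difference was -3.44 ± 0.28 (adjusted p 5.63e-07), and 8 of 8 probesets were lower in 3134. Psmb9 lay at 6.57 and 6.66 in 3134 and at 8.12 and 8.01 in AtT-20, with all AtT-20 arrays (lowest 7.82) above all 3134 arrays (highest 7.20). Its difference was -1.45 ± 0.20 (adjusted p 5.02e-05). Psmb10, the third subunit, was 0.93 ± 0.22 higher in 3134 (adjusted p 0.00385), in 9 of 9 probesets. Psmb8, Psmb9, Tap1 and Tap2 sit together within the MHC region.

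The class I heavy chains need care. H2-K1 lay at 8.25 and 8.50 in 3134 at 0 h and at 11.78 and 11.36 in AtT-20, and the lines did not overlap at any time (highest 8.50, lowest 11.36). The gene-level difference was -3.20 ± 0.18 (adjusted p 1.72e-08), a 9.16-fold lower signal. Its 14 probesets did not move as one: 5 were over 2 lower in 3134, the lowest by 7.45, while 8 differed by less than 1 in either direction and 6 were higher. The median of the probeset differences was -0.74, and a mean over probesets gave -1.78 with the same call. The most divergent H2-K1 probeset read 4.09 in 3134 and 11.54 in AtT-20, while another read 11.82 and 11.75. H2-D1 lay at 11.62 and 11.36 in 3134 and at 11.44 and 11.03 in AtT-20, whose ranges overlapped (difference 0.26 ± 0.28, adjusted p 0.472). Its mean over probesets gave -0.09, of the opposite sign. Class I genes are highly polymorphic between mouse strains and similar to each other, and the lines come from different strains. The part of sequence differences under the probesets was not tested.

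**Figure D3:**
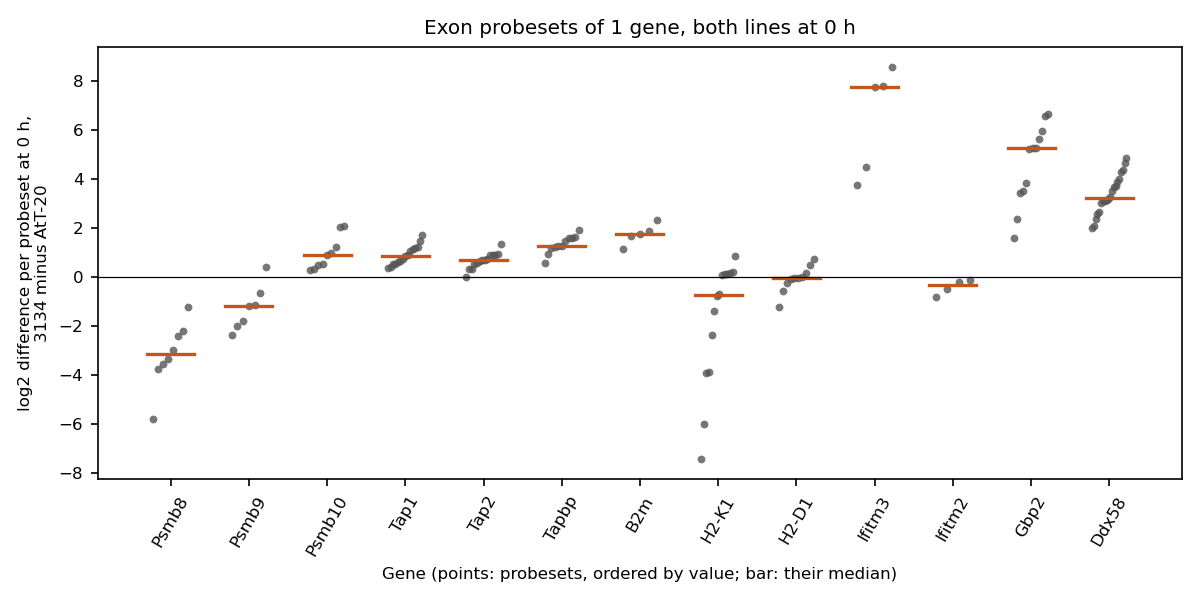
Differences per exon probeset at 0 h for 13 members. The vertical axis is the log2 difference, 3134 minus AtT-20, points are probesets ordered by value, and the bar is their median. H2-K1 spreads from -7.45 to 0.85, whereas the points of Psmb8 all lie below 0 and those of Tap1, Tapbp, B2m, Ifitm3, Gbp2 and Ddx58 all lie above it.

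Over 0, 2 and 4 h together, where both lines had 2 arrays, 14 members were higher and 9 lower in 3134, beside 71.9% of all genes (31.8% higher and 40.1% lower). Bst2 joined the higher members (0.63 ± 0.19, adjusted p 0.00916), and Trim25 (-0.60 ± 0.14, adjusted p 0.0021) and Ifitm2 (-0.30 ± 0.12, adjusted p 0.0382) joined the lower ones. The Ifitm2 call depends on the setting: its difference was 0.006 on the deposited scale, of the opposite sign, and it did not pass with centred arrays (-0.19, adjusted p 0.201), without the filter on dim genes (adjusted p 0.0614) or in 7 of the fits that left out 1 array (adjusted p 0.0603 to 0.113). Stat2 did not pass on the deposited scale (-0.004), with centred arrays (-0.20) or with the mean over probesets (-0.16). Irf1 (0.34) did not pass on the deposited scale (0.61, adjusted p 0.248), with the mean over probesets (adjusted p 0.0837), without the filter (adjusted p 0.0663) or in 9 of the fits that left out 1 array (adjusted p 0.0612 to 0.107). On the deposited scale 15 passed, 11 higher and 4 lower, beside 36.3% of all genes (20.7% higher and 15.5% lower). With the runs as a block, H2-D1 passed as higher in 3134 (limma, 0.28 ± 0.08, adjusted p 0.00451), beside 80.1% of all genes.

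Few members changed after dexamethasone. In 3134 at 2 h, Irf1 fell and was the only 1 of 27 tested members to pass, while 1.23% of all genes passed (0.948% higher and 0.282% lower). Irf1 went from 9.11 and 9.23 at 0 h to 7.77 and 7.83 at 2 h, then 8.61 and 8.54 at 4 h, then 8.74 and 8.71 at 8 h. Both arrays at 2 h were below all other arrays of 3134, and both arrays at 0 h were above them. The 2 h difference was -1.37 ± 0.24 (SE, adjusted p 0.0148), and 12 of 13 probesets were lower, the lowest by 2.30. Leaving out any of the 4 arrays kept a difference between -1.43 and -1.31 but not the call (adjusted p 0.0994 to 0.16). On the deposited scale the difference was -1.50 (adjusted p 1, and 4.3e-06 with the runs as a block). At 4 and 8 h Irf1 was 0.60 ± 0.24 and 0.44 ± 0.24 under its 0 h level, and neither passed (adjusted p 0.442 and 0.548).

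In AtT-20, the 0 h arrays of Irf1 lay at 8.66 and 7.79, those of 2 h at 8.09 and 7.87, those of 4 h at 8.46 and 8.17, and the 8 h array at 8.56. The treated arrays all fell within the range of the 0 h pair. The Irf1 differences from 0 h were -0.24 ± 0.24, 0.09 ± 0.24 and 0.34 ± 0.29, and none passed (lowest adjusted p 0.999). The mean response at 2 and 4 h was 0.91 lower in 3134 than in AtT-20, which did not pass without the block (SE 0.29, adjusted p 0.394) and passed with the runs as a block (SE 0.20, adjusted p 0.0269), beside 2.73% of all genes.

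**Figure D4:**
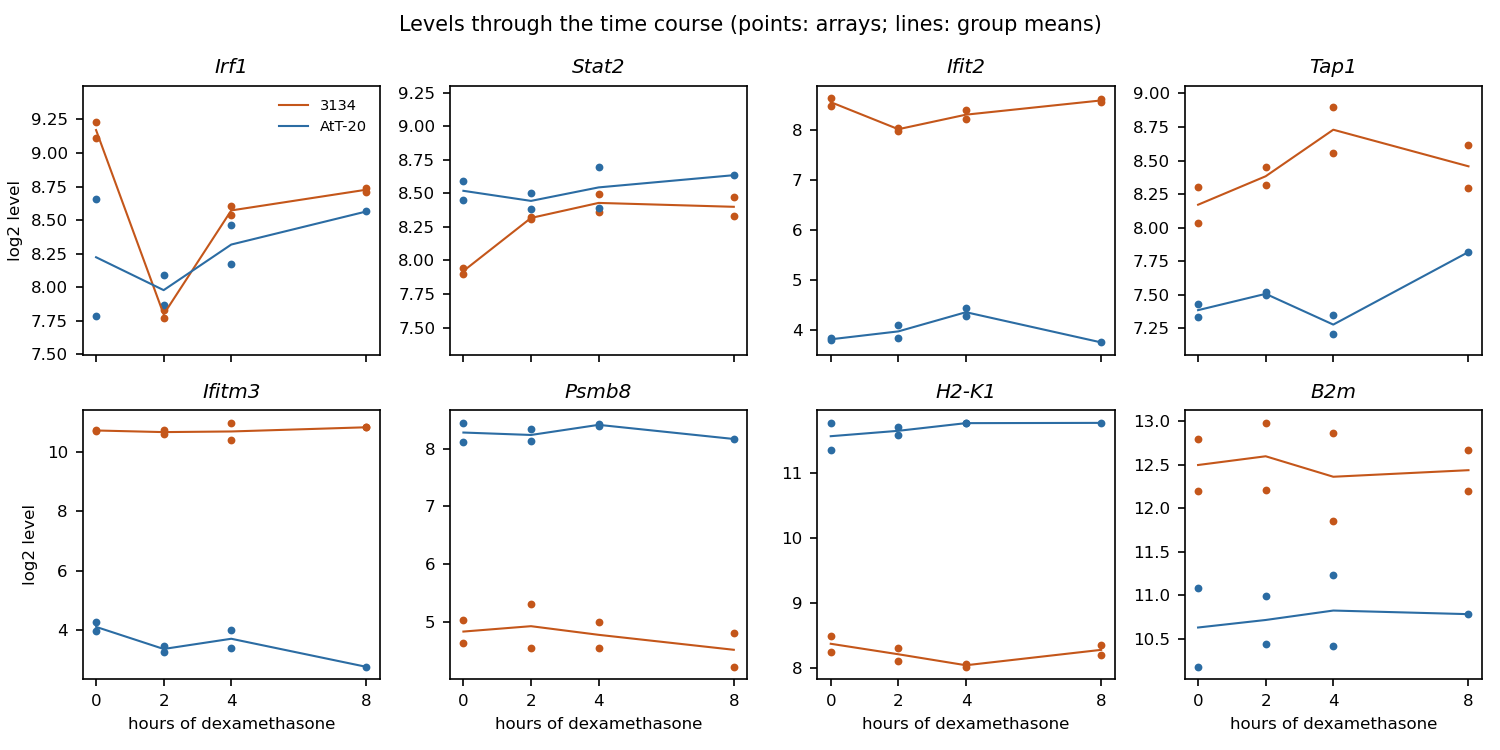
Levels of 8 members through the time course. The horizontal axis is hours of dexamethasone, the vertical axis is the log2 level on a scale of its own for each gene, points are arrays and lines join the group means. Irf1 in 3134 drops from 9.17 at 0 h to its lowest level at 2 h, while the other members shown keep their order between the lines or, for Stat2, come closer together.

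At 4 and 8 h in 3134, none of the 27 members passed (limma; 3 and 2 had an unadjusted p under 0.05), beside 1.91% and 2.19% of all genes. None passed for the mean of the 3 times either (3 with an unadjusted p under 0.05), beside 2.42% of all genes. With the runs as a block, the mean response of Irf1 (-0.81 ± 0.13, adjusted p 0.00215) and of Stat2 (0.46 ± 0.12, adjusted p 0.0377) passed, beside 6.55% of all genes. Stat2 in 3134 went from 7.94 and 7.90 at 0 h to 8.33 and 8.31 at 2 h, 8.36 and 8.50 at 4 h, then 8.47 and 8.33 at 8 h, so all 6 treated arrays lay above both 0 h arrays. In AtT-20 the Stat2 arrays were 8.45 and 8.59 at 0 h, 8.38 and 8.51 at 2 h, 8.70 and 8.39 at 4 h and 8.63 at 8 h, and the times overlapped. By probeset, at 2 h, 26 of 27 Stat2 probesets were above 0 h in 3134 (median 0.28) and 23 of 27 in AtT-20 (median 0.23), although the gene value of AtT-20 was not higher.

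Ifit2 in 3134 started from 8.49 and 8.65 before the hormone, with 7.99 and 8.06 after 2 h, 8.23 and 8.40 after 4 h, and 8.63 and 8.57 after 8 h. Its 2 h arrays were the lowest of the 8. The 2 h difference of -0.54 ± 0.16 did not pass (adjusted p 0.214), and passed with the runs as a block (adjusted p 0.0404), beside 3% of all genes. The Ifit2 arrays of AtT-20 were 3.84 and 3.80 at 0 h, 4.10 and 3.86 at 2 h, 4.44 and 4.28 at 4 h and 3.76 at 8 h, all under the level for testing. Tap1 in 3134 went from 8.04 and 8.31 at 0 h to 8.32 and 8.45 at 2 h, 8.90 and 8.56 at 4 h, then 8.62 and 8.30 at 8 h, where its 4 h difference of 0.56 ± 0.18 did not pass (adjusted p 0.227). In AtT-20, Tap1 lay at 7.43 and 7.34, then 7.52 and 7.50, 7.35 and 7.21, and 7.82 at 0, 2, 4 and 8 h. Ifitm2 lay 0.37, 0.25 and 0.48 above its 0 h level in 3134, and none of these passed (lowest adjusted p 0.382).

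In AtT-20 no member passed at 2, 4 or 8 h or for the mean of 2 and 4 h (limma; 1, 1, 1 and 2 had an unadjusted p under 0.05), beside 0.0907%, 0.171%, 0.121% and 0.181% of all genes. The widest value was for Ifitm3, at 3.96 and 4.26 at 0 h, 3.27 and 3.46 at 2 h, 4.01 and 3.41 at 4 h and 2.76 at 8 h. These lie under the level for testing and the 8 h group is 1 array, whose spread was assumed to be that of the other groups (difference -1.34 ± 0.28, adjusted p 0.193). In 3134, Ifitm3 was at 10.73 and 10.69, then 10.71 and 10.60, 10.97 and 10.38, and 10.81 and 10.82, so the times overlapped. The 9 antigen presentation genes differed from 0 h by -0.16 to 0.21 at 2 h in 3134 and by -0.18 to 0.12 in AtT-20. B2m in 3134 lay at 12.98 and 12.21 at 2 h, 12.86 and 11.86 at 4 h, then 12.67 and 12.20 at 8 h, which overlapped its 0 h arrays. Psmb8 in AtT-20 was at 8.34 and 8.13, 8.39 and 8.43, and 8.16 at those times, again overlapping 0 h, and H2-K1 there was at 11.72 and 11.59, 11.77 and 11.77, and 11.78. For the difference between the lines in the 2 and 4 h response, no member passed (3 with an unadjusted p under 0.05), beside 0.645% of all genes.

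Other genes of the pathway were read from lists. Of 5 interferon receptor genes tested among 12 ligands and receptors, Ifngr1 (1.07 ± 0.21) and Il10rb (0.58 ± 0.16), receptor subunits for interferon gamma and lambda, were higher in 3134 at 0 h. Ifnar1 and Ifnar2 differed by 0.26 and 0.00 and did not pass, and Ifngr2, the partner of Ifngr1, differed by -0.81 ± 0.33 (adjusted p 0.0538), which passed as lower with the runs as a block (adjusted p 0.000286) and over 0, 2 and 4 h (-0.95, adjusted p 0.000663). Of 13 JAK-STAT and feedback genes, 5 were higher and 1 lower, among them the kinases Jak2 (1.29 higher), Jak1 (0.92) and Tyk2 (0.60). Of 13 nucleic acid sensors and adaptors, 9 were higher and none passed as lower without the block, led by the DNA sensor Aim2 (6.64 ± 0.32) and the adaptor Sting1 (2.10 ± 0.22). Of 29 further interferon-stimulated genes, 15 were higher and 2 lower, with Ifi204 at 6.07 ± 0.23 and Trim30a at 5.78 ± 0.23. Of 9 other antigen presentation genes, the peptide-trimming enzyme Erap1 (1.21 ± 0.22) and the chaperone Canx (0.89 ± 0.24) were higher and H2-Ke6, an MHC-region gene that is no class I chain, was lower (-1.09 ± 0.33). Of the 14 constitutive proteasome core subunits, none was higher and 11 were lower, among them Psmb7 by 1.34, the subunit that Psmb10 replaces. The loading chaperone Calr did not pass (-0.27 ± 0.23, adjusted p 0.348). These counts stand beside the 24.3% of all genes higher and 30.3% lower at 0 h. The listed genes passed the same filter, so the counts can include genes admitted only through the line where they are high. The size of such a difference depends on the array's background in the dimmer line. With the runs as a block, the counts higher and lower were 2 and 1 for receptors, 6 and 2 for JAK-STAT genes, 10 and 2 for sensors and adaptors, 15 and 3 for further interferon-stimulated genes, 2 and 1 for other antigen presentation genes, and 0 and 13 for the proteasome core, beside 29.6% of all genes higher and 37.2% lower.

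In the mean response of 3134, 2 of the 83 tested genes of the 6 lists fell and none rose, beside 0.625% of all genes lower and 1.79% higher: Traf3, an adaptor of interferon induction, by 0.94 ± 0.14 (adjusted p 0.00219), and Trim21, a cytosolic antibody receptor, by 0.64 ± 0.14 (adjusted p 0.0305). Traf3 went from 8.80 and 8.88 at 0 h to 8.24 and 8.15 at 2 h, 7.84 and 8.10 at 4 h, then 7.73 and 7.36 at 8 h, so every treated array was below both 0 h arrays. Socs3, the feedback inhibitor of cytokine signalling, fell at 2 h by 0.81 ± 0.16 (adjusted p 0.0308), and its mean difference of -0.52 did not pass (adjusted p 0.0682; 0.0139 with the runs as a block). With that block, the mean response in 3134 held 1 lower gene of the JAK-STAT list, 2 lower sensors and adaptors, and 3 higher and 2 lower further interferon-stimulated genes, beside 4.03% of all genes higher and 2.52% lower. In AtT-20 no gene of the 6 lists passed for the mean of 2 and 4 h, beside 0.181% of all genes. With the runs as a block only Sting1 (-0.55 ± 0.11, adjusted p 0.0417) passed, beside 0.756% of all genes.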

How the data were processed

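RNA of 15 samples was measured on Affymetrix mouse exon arrays, grouped by the line and time in the sample titles. The deposited values are log2 signals per exon probeset, and the submitters' processing notes name Affymetrix Expression Console and RMA for them, with no version or setting stated. Of 228090 probesets, the platform annotation gave 1 gene symbol to 207232, several to 3882 and none to 16976, and those with 1 symbol were used. Of 16207 symbols, 14055 were current in RefSeq (GRCm38.p6), 2111 were updated through synonyms and 41 kept. The medians of the deposited columns ran from 6.76 to 8.14, so the arrays were quantile normalized together. The highest correlation between arrays was 0.986, and none was taken for a repeat.

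A gene's value was the median over its probesets, and 9919 genes with at least 3 probesets and a highest group mean of at least log2 6.59 (40th percentile) were tested. The 8 group means were estimated from all 15 arrays by limma 3.58.1 (two-sided tests, lmFit and eBayes) in R 4.3.3 with the package data.table (version 1.17.8) for input, with 7 residual degrees of freedom. Benjamini-Hochberg adjustment ran over the 9919 genes, and a gene passed below an adjusted p of 0.05. Precision is limited by the few arrays, and the median SE was 0.215 for 2 arrays against 2 and 0.264 for AtT-20 at 8 h. The fit was run on simulated data for the 0 h comparison, with independent noise on each array and no run effect. Its error rates with run effects were not tested.

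The serial numbers in the titles form a low and a high run within each line. The high runs of the lines are separate ranges of serial numbers, and the block has a run term of its own for each line. Deviations from group means correlated across genes by 0.491 to 0.591 over 9 pairs of 1 run and line. Over 12 pairs of 1 run in different lines they correlated by 0.276 to 0.39. Arrays of the same run were therefore treated as paired in the blocked model. The main tests had no run term. Values from the blocked model, which leaves 5 residual degrees of freedom, appear where a member's call changes. Alternatives were the deposited scale, median-centred arrays, the mean over probesets, no filter on dim genes, the block, and leaving out each array. Levels are given in full for the 5 members with the largest difference each way, those with the smallest p in the mean responses and Stat2, Irf1, Irf7, Irf9, Psmb8, Tap1, B2m and H2-K1. Genes outside the list were named by smallest p, at most 4 for each pathway list at 0 h and 2 for the responses. The members, lists and rules were chosen with earlier results of these data known.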

Additional observations from a re-analysis of the deposited data

Results flagged for a closer look

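The response of 2 members to dexamethasone differed between the lines when the 2 runs of arrays were kept as a block, beside 2.73% of all genes. Without the block no member passed, beside 0.645% of all genes. For Irf1, the mean difference from 0 h over 2 and 4 h was lower in 3134 than in AtT-20 by -0.91 on the log2 scale (SE 0.196, limma, adjusted p 0.0269). Without the block the same difference had an adjusted p of 0.394. It rests on a fall in 3134 and on an AtT-20 pair at 0 h that was 0.87 apart, so its size depends on that pair. Without replicate 1 of AtT-20 at 0 h the difference was -1.35. Without replicate 2 it was smaller, because the 0 h array kept (8.66) stood above all 2 and 4 h arrays of AtT-20. For Ifit2, the difference was -0.747 (SE 0.157, adjusted p 0.0229 with the block and 0.149 without it). The AtT-20 side of Ifit2 lay between 3.76 and 4.44 on all arrays, under the level for testing, so its part there is a movement of dim values.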

How the results depend on the processing

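At 0 h, 20 members passed, beside 54.5% of all genes. On the deposited scale 9 passed, all 9 among the 20, beside 19.7% of all genes. With the replicate block on the deposited scale, only Stat2 and Adar lost their calls and Bst2 gained one. The SE of a member there was 0.691 without the block and 0.27 with it. The cause was not tested. Leave-one-out counts were 19 to 21. Over 0, 2 and 4 h, 23 passed, beside 71.9% of all genes, and 15 on the deposited scale, beside 36.3%. The 1 member of 3134 at 2 h (Irf1) became 0 on the deposited scale and in every leave-one-out fit (0 to 0), and 2 (with Ifit2) with the replicate block. In 3134 at 4 h the count of 0 became 1 (Parp9) with the mean over probesets. It became 2 (Irf1 and Parp14) on the deposited scale with the replicate block. No share of all genes is given for the mean over probesets. For the deposited scale with the block, calls of all genes are given further below, only at 8 h in 3134. Its other counts describe the processing only. At 8 h that setting gave 4 (Irf1, Ddx58, Gbp2, Psmb10), for the mean response 2 (Irf1 and Ddx58; the replicate block alone gave 2), and in AtT-20 at 8 h 1 (Ifitm3). All leave-one-out counts of responses were 0 to 0. The difference of responses gave 2 with the replicate block and 0 to 1 leave-one-out (1, Irf1, without AtT-20 0 h replicate 1).

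The sign of 1 difference that had passed turned: Ifitm2 over 0, 2 and 4 h was 0.006 on the deposited scale, with or without the block. The other signs found to turn were of differences that had not passed. They come from the 0 h differences and from responses of a few members. The signs of the other responses were not checked. At 0 h, Irf9 was 0.092 on the deposited scale with or without the block, and leave-one-out from -0.541 to 0.244. For Ifi35 these were 0.185 and -0.533 to 0.272. Ifitm2 was 0.016 on the deposited scale, Irf3 was -0.226 to 0.269 leave-one-out, and H2-D1 was -0.086 with the mean over probesets. Ifit2 in 3134 at 8 h was -0.356 on the deposited scale, -0.046 with centred arrays and -0.045 to 0.113 leave-one-out.

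On the deposited scale the median of all genes shifts by 0.232 at 0 h, by -0.072, -0.317 and -0.377 at 2, 4 and 8 h in 3134, and by 0.012, -0.216 and 0.481 in AtT-20, which moves every gene with it. At 8 h in 3134, the deposited scale with the block calls 125 genes higher and 1028 lower, against 427 and 357 with the block after quantile normalization. With 2 arrays a group, small changes cannot be called, and members under log2 6.59 were limited by background. The replicate block changed no member's call other than those of Bst2, Trim25, H2-D1 (over 0, 2 and 4 h), Ifit2, Irf1 and Stat2.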

Other observations

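After quantile normalization, the first run of arrays still read higher than the second for 8 of the 27 tested members in all 7 pairs of 1 line and time. These were B2m, Bst2, Gbp2, H2-D1, Ifi35, Irf9, Psmb10 and Tapbp, and no member was lower in all 7 pairs. Over all genes tested, 12.4% were higher and 10.3% lower in all pairs, against 29.6% and 0% of the members. The gap was widest for B2m, the class I light chain, with 0.47 to 1.01 between the runs (log2, median 0.77). Ifi35 had gaps of 0.16 to 0.90, Irf9 of 0.01 to 0.80 and H2-D1 of 0.26 to 0.60. B2m was higher in 3134 than in AtT-20 at 0, 2 and 4 h, in the first-run arrays and in the second-run arrays. The second runs of the lines are separate ranges of serial numbers, and the labels do not say that they belong together. For Irf9 the gap between the runs was larger than the difference between the lines at 0 h (-0.15).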
